A study of Rattus norvegicus with 6 samples.

Results

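The neurotrophins are secreted growth factors that act through the Trk family of receptor tyrosine kinases. Brain-derived neurotrophic factor (Bdnf) and neurotrophin 4 (Ntf4) bind TrkB, the product of Ntrk2, and neurotrophin 3 (Ntf3) binds mainly TrkC, the product of Ntrk3. Each is made as a precursor that can bind a complex of the p75 receptor (Ngfr) and sortilin (Sort1), and removal of the precursor part yields the form that activates Trk receptors. In the rodent ovary these factors and receptors are known from oocytes, granulosa cells and surrounding cells as well as from nerves, and they take part in follicle assembly and early follicle growth around birth. Ntf3, Ntf4, Bdnf, Ntrk2, Ntrk3 and Sort1 are described here. Their probes were found through the RefSeq accession that the array design gives for each probe, and all 6 genes had at least 1 probe, which made 10 probes of the 30367 on the array and 6 of 15154 named genes.

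Ovaries were taken on postnatal day 7 from female Wistar rat pups that had been injected intraperitoneally on postnatal days 3 and 5. The LPS group received 0.05 mg/kg of lipopolysaccharide from Salmonella enteritidis, a bacterial cell wall component that triggers an innate immune response, and the control group received saline. RNA was labeled with the dye Cy3 and hybridized to 6 Agilent arrays, 3 for each treatment. Whole litters were assigned to a treatment, so litter and treatment cannot be told apart, and the ovaries for a treatment came from fewer litters than arrays, so its arrays are not independent litters. Values of 3 arrays are listed in the order of replicates 1, 2 and 3. A value below is the log2 of the background-subtracted signal of a probe minus the 75th percentile of its array, so that 0 is the level of a fairly bright probe and -1 is a signal 2-fold lower. Well above background means that the scanner software set its flag of that name for most spots of the probe on that array. With 3 arrays per treatment every value has limited precision.

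Markers of the ovary were present on all arrays. All 9 oocyte genes with a probe, among them Zp3, and all 9 genes of the ovarian stroma were well above background on all 6 arrays, as were 9 of 11 granulosa cell genes. Saline replicates 2 and 3 stood apart in carrying adrenal transcripts. The summed scaled signal of 10 adrenal cortex markers was 293 and 386 on these arrays, against 6.62 on saline replicate 1 and 5.69, 17.1 and 13.6 on LPS replicates 1, 2 and 3. For 10 adrenal medulla markers the sum was 92.7 and 60.3, against 8.04 on saline replicate 1 and 7.68, 5.05 and 4.70 on the LPS arrays. Differences of the member genes above background are therefore given with and without saline replicates 2 and 3. Leaving them out makes saline replicate 1 the only control array, whose spread is then taken from the LPS arrays.

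Ntf3 had the largest fitted difference above 0 among the member genes, though it did not pass adjustment for multiple testing. Its probe (A_44_P496447) read -3.21, -3.53 and -3.60 on LPS replicates 1, 2 and 3, and -3.80, -4.86 and -5.22 on saline replicates 1, 2 and 3. The lowest LPS array exceeded the highest saline array, and saline replicate 1 lay closer to the LPS arrays than to the other saline arrays. The group means were -3.45 ± 0.21 (SD, n = 3) and -4.63 ± 0.74 (SD, n = 3), a log2 difference of 1.18 (SE 0.37, 95% interval 0.29 to 2.07). Ntf3 was well above background on 3 of 3 LPS arrays and on 1 of 3 saline arrays, so that the saline level of replicates 2 and 3 was poorly measured and the difference is not exact. With each reading that was not well above background raised to the lowest signal that was so on its array, an alternative chosen after seeing the data, the difference was 0.73, less than 2-fold. Before scaling, the median signal of its 2 spots was 366, 356 and 453 with LPS and 171, 159 and 86.1 with saline. Unscaled, saline replicate 1 thus lay closer to saline replicate 2 than to any LPS array, so its closeness to the LPS arrays depends on the scaling.

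The criterion used here is a 2-fold difference with an unadjusted p under 0.05. Ntf3 met it with a limma p = 0.0172 beside an exact two-sided permutation p = 0.1 of the 6 arrays, the smallest value that 3 against 3 allows. It did not pass after Benjamini-Hochberg adjustment over all probes (limma adjusted p = 0.271). Ntf3 was the only one of the 10 probes to meet the criterion, while 186 of 30367 probes, 0.613%, did so in the higher direction and 327, 1.08%, in the lower direction. After adjustment in limma 0 probes, 0%, had a p under 0.05, whereas 5018 or 16.5% did before adjustment. Groups without overlap and with LPS the higher were found at 1523 of 30364 probes, 5.02%.

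The size of the difference in Ntf3 depended on the saline arrays. Against saline replicate 1 alone the mean of the LPS arrays was higher by 0.35 (limma adjusted p = 0.864), no longer past the criterion. Leaving out saline replicate 2 or saline replicate 3 gave 1.06 and 0.88, neither with an unadjusted p under 0.05. Leaving out saline replicate 1, the control array without much adrenal signal, gave 1.59, but the controls then left, saline replicates 2 and 3, were both not well above background for Ntf3, so that this is no measured difference and its p is not used. In that setting 290 probes of the array had an adjusted p under 0.05 in limma, 282 of them lower after LPS. Saline replicates 2 and 3 are the arrays with adrenal transcripts, and the part of these in the result was not tested. Fewer cells of a type and less RNA per cell cannot be told apart in whole ovaries. Ntf3 also lost the criterion when the background was treated in another way, with a log2 difference of 0.32 after normexp correction and 0.16 without any correction.

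Position on the slide was shared unevenly between the groups. LPS replicates 2 and 3 occupied 1 row of the slide, while LPS replicate 1 shared the other with the 3 saline arrays. Within the shared row, LPS replicate 1 was higher than the mean of the saline arrays by 1.41 for Ntf3 (limma adjusted p = 0.583 with the row as a block). This rests on a single LPS array, and the same fit put 1489 probes past the criterion as higher, against 186 without the block. The row with LPS arrays alone gave no comparison.

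**Figure D1:**
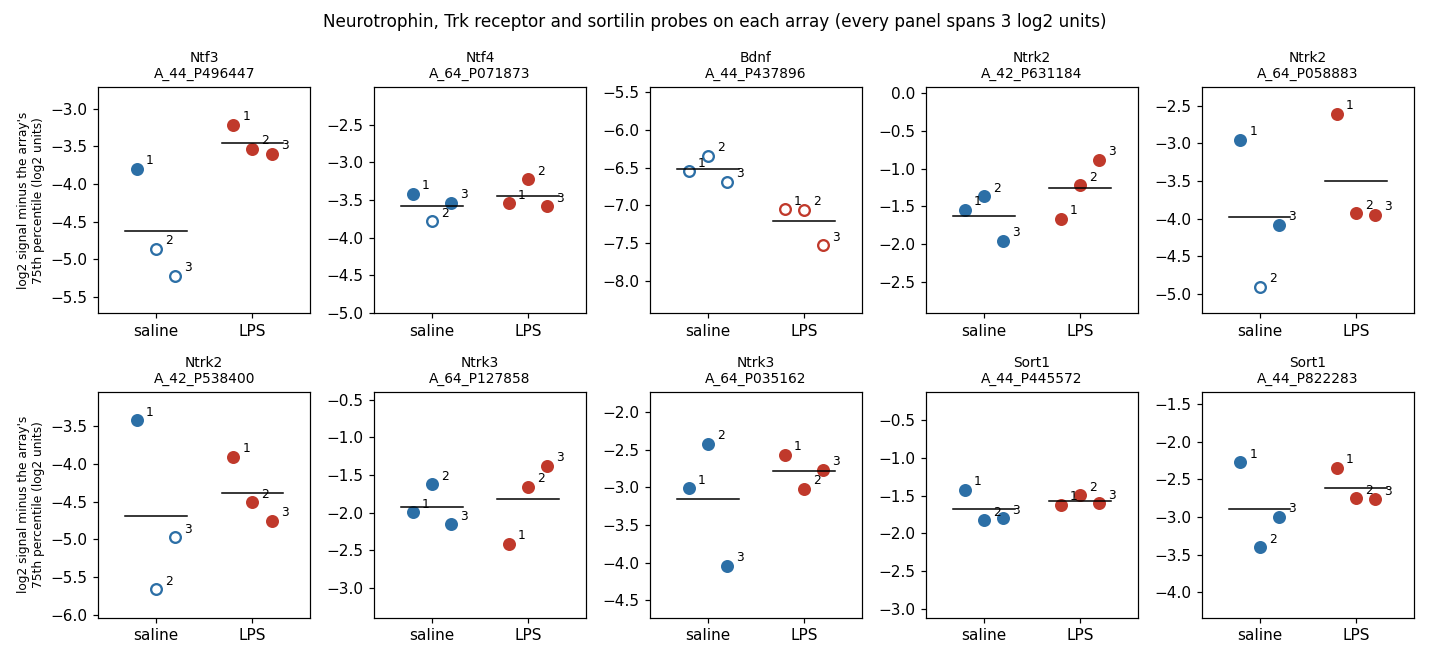
Log2 signal minus the 75th percentile of the array for each of the 10 probes, with saline arrays in blue and LPS arrays in red, numbered by replicate. Filled points were well above background, open points were not, and lines are group means over 3 arrays. Ntf3 and Bdnf are the 2 genes whose groups do not overlap, and all Bdnf points are open.

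Ntf4, the other ligand of TrkB beside Bdnf, differed little between treatments. Its probe (A_64_P071873) read -3.55, -3.23 and -3.58 with LPS and -3.42, -3.78 and -3.54 with saline. The arrays of the groups overlapped. The means were -3.45 ± 0.20 and -3.58 ± 0.19 (SD, n = 3 each), and the log2 difference of 0.13 had a 95% interval from -0.33 to 0.59 (limma adjusted p = 0.892). Ntf4 was well above background on all arrays but saline replicate 2, where this held for 1 of its 2 spots. Against saline replicate 1 alone the difference was -0.03, and within the shared slide row it was 0.03.

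Bdnf, the ligand best known for its action in the brain, was well above background on 0 of 6 arrays. Its probe (A_44_P437896) read -7.05, -7.06 and -7.53 with LPS and -6.55, -6.34 and -6.68 with saline, and all 10 of its spots on each array held a surrogate value that the software puts in place of signals too dim to measure. No fold is given for it. The groups did not overlap and LPS was the lower, which was so at 5596 of 30364 probes, 18.4%. Of 8008 probes that no array showed well above background this held for 4426 or 55.3%, against 1032 or 5.86% of 17613 that all 6 arrays did. The median of these 8008 probes was -6.90, -6.95 and -7.45 with LPS and -6.59, -6.27 and -6.63 with saline, which is close to the readings of Bdnf.

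Ntrk2 encodes TrkB, the receptor for Bdnf and Ntf4, and produces both a full-length kinase and shorter forms that lack the kinase domain. It had 3 probes, which the array design assigns to 2 RefSeq transcripts, and which form of the receptor each one reports was not established here. The probe for NM_001163168 (A_42_P631184) read -1.66, -1.22 and -0.88 with LPS and -1.55, -1.37 and -1.96 with saline. It was well above background on all 6 arrays, and the groups overlapped. The log2 difference was 0.37 (95% interval -0.26 to 1.01, limma adjusted p = 0.625). Blocking on slide row made it -0.04, and against saline replicate 1 alone 0.29.

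Both probes for the other transcript of Ntrk2, NM_012731, showed another pattern. Probe A_64_P058883 read -2.61, -3.93 and -3.95 with LPS and -2.95, -4.90 and -4.08 with saline. Probe A_42_P538400 read -3.90, -4.51 and -4.75 with LPS and -3.42, -5.66 and -4.97 with saline. In each case replicate 1 was the highest array of both treatments. The SD among arrays was 0.77 and 0.98 for the first probe, and 0.44 and 1.15 for the second, in LPS and saline. These 2 probes were correlated over the 6 arrays (Pearson r = 0.94), whereas the probe for NM_001163168 gave r = -0.26 and r = -0.16 with them, as a description only. The differences between treatments were 0.49 (95% interval -0.89 to 1.86) and 0.29 (-1.07 to 1.66), with limma adjusted p-values of 0.839 and 0.931. Both were below 0 against saline replicate 1 alone, at -0.54 and -0.97. The first probe was not well above background on saline replicate 2, and the second on saline replicates 2 and 3, so that neither difference is exact. With such readings raised as for Ntf3, chosen after seeing the data, the differences were 0.25 and -0.34, and the second thus changed its sign.

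Ntrk3, the gene for the Ntf3 receptor TrkC, was well above background on all 6 arrays at both of its probes. Probe A_64_P127858 read -2.41, -1.66 and -1.38 with LPS and -1.99, -1.62 and -2.15 with saline, and LPS replicate 1 was the lowest of all. Probe A_64_P035162 read -2.56, -3.02 and -2.77 with LPS and -3.01, -2.42 and -4.04 with saline, with saline replicate 3 the lowest. The groups overlapped at both probes, and the probes followed each other only loosely over the 6 arrays (Pearson r = 0.28). The log2 differences were 0.11 (95% interval -0.63 to 0.84) and 0.37 (-0.60 to 1.35), with limma adjusted p-values of 0.968 and 0.815. The first was -0.49 with the slide row as a block, and the second was 0.59. They were 0.18 and 0.23 against saline replicate 1 alone, and -0.0086 and -0.068 without saline replicate 3.

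Sort1 encodes sortilin, a sorting receptor that binds neurotrophin precursors on the cell surface together with p75 and also directs proteins inside the cell. Each of its probes exceeded background clearly on all 6 arrays. Probe A_44_P445572 read -1.62, -1.49 and -1.60 with LPS and -1.42, -1.82 and -1.80 with saline. Probe A_44_P822283 read -2.34, -2.75 and -2.76 with LPS and -2.27, -3.40 and -3.00 with saline. Saline replicate 1 was the highest array at each probe. The log2 differences were 0.11 (95% interval -0.33 to 0.54) and 0.27 (-0.48 to 1.02), with limma adjusted p-values of 0.913 and 0.830. Against saline replicate 1 alone they were -0.15 and -0.35.

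Of the 10 probes, 9 had a fitted difference above 0, all but that of Bdnf, with a median of 0.28 over the 10, while 44.8% of all 30367 probes were above 0 with a median of -0.04. Of the 17613 probes well above background on every array 53.6% were above 0, with a median of 0.02. Against saline replicate 1 alone, 4 of the 9 probes other than Bdnf were above 0. With the slide row as a block, which leaves LPS replicate 1 as the only LPS array, 7 of the 9 were. The intervals of the 8 probes apart from those of Ntf3 and Bdnf all included 0, and their upper ends reached from 0.54 to 1.86.

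For the members whose brightest probe was well above background on all 6 arrays, the named genes with the most similar course over the arrays were sought among 9694. For Ntrk2 (A_42_P631184) they were Mrgprf (Pearson r = 0.996), Denr (0.995) and Cnn1 (0.995), the last of which encodes calponin of smooth muscle. For Ntrk3 (A_64_P127858) they were Srf (0.989), which encodes serum response factor, Ppic (0.987) and Cdc45 (0.984). For Sort1 (A_44_P445572) they were 9530082P21Rikl (0.986), Ccdc80 (0.981) and Cstf2t (0.979). Each is the highest of many correlations over 6 arrays and is given as a description. Cnn1 read -1.30, -0.39 and 0.28 with LPS and -1.15, -0.80 and -1.76 with saline, so that LPS replicate 3 was the highest for it as for this probe of Ntrk2.

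The related receptors and ligands gave 1 gene past the criterion. Of 16 genes in this list 15 had a probe. The median difference was 0.07, with 0 genes higher and 1 lower by the criterion. That gene was Nrn1, which encodes the secreted protein neuritin and was named after its values were seen. It exceeded background clearly on 1 saline array only, and no fold is given. Ngfr, the p75 receptor, read -0.91, 0.43 and 0.17 with LPS and -0.42, 0.12 and 0.06 with saline, a difference of -0.02 (95% interval -0.92 to 0.87). The largest differences among the genes well above background on all 6 arrays were 0.56 for Sorcs3 and -0.48 for Sorcs1, both of the sortilin family, and 0.43 for Cntf, which encodes ciliary neurotrophic factor. The value for Sorcs3 was 0.01 against saline replicate 1 alone, and its other probe differed by 0.14.

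**Figure D2:**
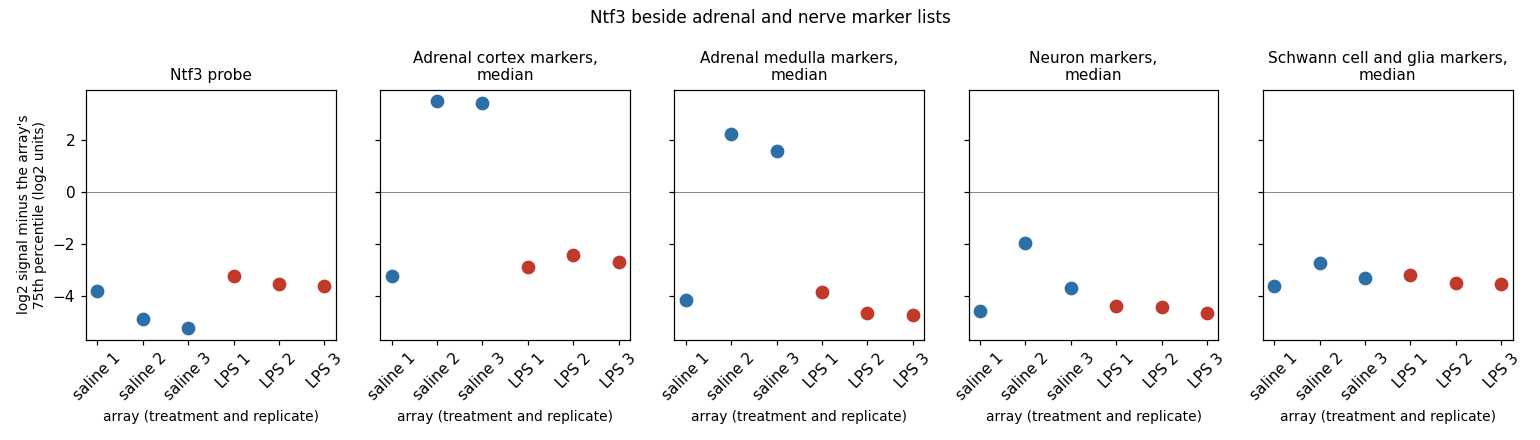
Log2 signal minus the 75th percentile of the array for Ntf3 and, as medians over each list, for markers of adrenal cortex, adrenal medulla, neurons, and Schwann cells and glia on each array, saline in blue and LPS in red. Adrenal lists are high on saline replicates 2 and 3, and the neuron list is highest on saline replicate 2. Ntf3 is not well above background on saline replicates 2 and 3.

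Neuronal transcripts differed among the control arrays. The median of 12 neuron markers with a probe was -4.55, -1.95 and -3.67 on saline replicates 1, 2 and 3 and -4.35, -4.39 and -4.63 on the LPS arrays. Their summed signal was 15.4, 25.4 and 18.1 with saline and at most 19.4 with LPS, most of it from Uchl1, which made between 62.4% and 92.0%. Of the 12, 3 were lower after LPS by the criterion and 0 were higher, and Syt1 was at background throughout. Tubb3, a tubulin typical of neurons and named after its values were seen, was highest on saline replicate 2, at 0.85 against -6.14 and -2.65 on saline replicates 1 and 3 and between -4.54 and -3.98 with LPS, though not well above background on replicate 1 of either treatment. Prph, the peripherin of peripheral neurons, differed by -1.13 and by -0.47 against saline replicate 1 alone. The other 2 past the criterion, named after their values were seen, were Stmn2 and Snap25, and neither was well above background on an LPS array. The computed bounds were 7.70-fold and 1.40-fold lower after LPS. For both the groups overlapped, and the bound rested on the few saline arrays well above background, 2 for Stmn2 and 1 for Snap25. The dim saline readings were kept as they stood, so neither bound is a strict minimum. Saline replicate 1 was not well above background for either, like the LPS arrays. Nefm and Gap43 differed by -0.83 and -0.53. Among 10 markers of Schwann cells and glia 0 met the criterion, with a median difference of -0.37, differences of -0.46 and 0.32 for Sox10 and Pmp22, and Cdh19 and Gfap not well above background on any array. Their summed signal was 5.14, 6.63 and 4.75 on saline replicates 1, 2 and 3 and 5.42, 6.37 and 6.73 on the LPS arrays, most of it from Pmp22. The part of nerve transcripts in the values of the neurotrophin and receptor genes was not tested.

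Adrenal markers had a lower mean after LPS in all 20 genes of both lists. Past the criterion were 8 of 10 in the medulla list and 5 of 10 in the cortex list. The size of these differences rested mainly on saline replicates 2 and 3. Against saline replicate 1 alone, 8 of 10 medulla genes and 5 of 10 cortex genes were lower. Th, which encodes tyrosine hydroxylase, read 1.80, 1.11 and 0.76 with LPS and 1.91, 4.40 and 3.81 with saline. Pnmt, Ddc and Slc18a1 differed by -3.34, -2.22 and -3.50, and by -0.42, -0.52 and -0.32 against saline replicate 1 alone, and Slc18a1 was well above background on 2 of 3 LPS arrays. In the cortex list Cyp21a1 and Cyp11b3 met the criterion with -4.65 and -3.36, which became -0.46 and -0.33 against saline replicate 1 alone. Cyp11a1 and Mrap, with -5.20 and -4.04, did not meet it and were higher by 0.80 and 0.43 against that array alone. Mc2r, the corticotropin receptor, was not well above background on saline replicate 1 or on the LPS arrays.

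Genes that process neurotrophin precursors included some that were lower after LPS. Of 15 with a probe, 3 were lower and 0 higher by the criterion, with a median difference of -0.22. Serpini1, which encodes neuroserpin, an inhibitor of tissue plasminogen activator, read -2.71, -2.48 and -2.40 with LPS and -2.38, -0.24 and -0.53 with saline. Its difference of -1.48 (limma adjusted p = 0.278) was -0.15 against saline replicate 1 alone. A2m, a broad protease inhibitor, read -1.15, -0.84 and -0.38 with LPS and -0.66, 1.17 and 1.15 with saline, with a difference of -1.34 (limma adjusted p = 0.286) that became -0.13 against saline replicate 1 alone. Both were highest on the arrays with adrenal transcripts. With the slide row as a block neither met the criterion, at -1.66 and -1.70. Over all alternatives Serpini1 kept it in 12 of 21 and A2m in 13 of 21, and both lost it without saline replicate 2 or 3. Leaving out a single LPS array also ended it, for Serpini1 with any of them and for A2m with replicate 1 or 2. Pcsk2, a convertase of secretory granules and named after its values were seen, met the criterion with 0 arrays well above background. Cpe, which trims peptide precursors, differed by -0.88, and by 0.15 against saline replicate 1 alone. Furin, the convertase of most cells, differed by -0.22, and Plat, the tissue plasminogen activator that leads to plasmin, by 0.16, both named after their values were seen.

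Of 31 adaptors and effectors downstream of Trk receptors with a probe, 1 was higher and 0 lower by the criterion, with a median difference of 0.12. That gene was Crk, an adaptor named after its values were seen, which 2 LPS arrays and 0 saline arrays showed well above background. Its computed bound of 1.04-fold keeps the dim reading of LPS replicate 2, so no minimum rise is established. Of the genes well above background on all 6 arrays, Gab1, a docking protein, and Map2k5, a kinase of the ERK5 cascade, differed by 0.61 and 0.44. Ptpn1, a tyrosine phosphatase, differed by -0.46 (95% interval -0.85 to -0.06, limma adjusted p = 0.276), without overlap of the groups. None of the 16 interactors of p75 with a probe met the criterion, and their median difference was 0.02. Maged1 and Ndn differed by 0.44 and -0.30.

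Genes that respond to neurotrophin signaling in neurons had a median difference of -0.29 over the 16 with a probe, 0 of them higher and 1 lower by the criterion. The gene past it was Vgf, a secretory granule protein named after its values were seen, which read -7.02, -7.12 and -7.57 with LPS and -6.39, -0.79 and -1.92 with saline. Vgf was well above background on saline replicates 2 and 3 alone. Its bound of 3.96-fold lower after LPS keeps the dim reading of saline replicate 1, so it is not a strict minimum. Npy, which encodes neuropeptide Y, read -1.19, -1.24 and -1.45 with LPS and -1.29, 3.02 and 0.65 with saline, and its difference of -2.09 (limma adjusted p = 0.349) rested on the same arrays. Junb and Dusp6 differed by -0.92 and -0.57, and by -0.09 and 0.15 against saline replicate 1 alone. Over the 5 lists together, 1 gene of 93 with a probe was higher and 5 were lower, beside 0.613% and 1.08% of all probes. Against the lone saline replicate 1 this was 2 of the 93, beside 494 higher and 506 lower of 30367 probes. A bound such as that for Vgf compares the mean of the brighter group with the dimmer group, each array of which is taken at its own reading or at its lowest signal well above background, whichever is higher. Readings of the brighter group are kept as they stand. Where any of these is not well above background, the bound is therefore no strict minimum.

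Of the reference genes Actb differed by -0.03 and Tuba1a by -0.02, with 95% intervals from -0.51 to 0.46 and from -0.61 to 0.57.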

How the data were processed

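RNA of 6 ovary samples was measured on 1 Agilent slide in 1 scan. The authors deposited spot intensity values and flags from Agilent Feature Extraction 10.5.1.1, and a table of the whole study with intensity values equal to the processed signal within 0.497%. The software had subtracted the background and put surrogate values in place of dim signals, and the arrays were not scaled to each other. Here spots flagged as non-uniform or population outliers were removed, the log2 processed signal was averaged over the spots of a probe, and the 75th percentile of each array was subtracted. Over the spots of an array it was, before scaling, 3956, 5025 and 6754 on LPS replicates 1 to 3 and 2824, 5801 and 3941 on saline replicates 1 to 3. The percentage of spots well above background was 76.0, 72.4 and 74.1 with LPS and 70.4, 66.3 and 69.9 with saline. limma 3.58.1 in R 4.3.3 compared the treatments over all 30367 probes without a filter on dim probes, with at least 2 unflagged arrays in each treatment, and was tested on simulated data. The criterion, at least 2-fold at p under 0.05, is that of the study's methods, applied to the unadjusted p. The p-values measure the spread between these arrays. Gene names came from matching RefSeq accessions to the GRCr8 gene table, whose coordinates were not used. It named 17998 probes and 15154 genes, while 3408 probes with such an accession were not matched. A gene in a list was read from its probe with the highest mean.

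The members, the 5 pathway lists and the 9 marker lists were chosen with earlier results of these data known. Genes named in the text were taken from all probes of the members, the 3 largest differences of each list among genes well above background on all 6 arrays, genes past the criterion that every array of 1 treatment showed well above background, the 3 genes most correlated with a member, and Actb and Tuba1a, and not all of these are printed. Every other gene in the text was named after its values were seen. Alternatives covered background correction, scaling, the deposited table, flagged and dim spots, the test, the slide row, the replicate number, probe choice, left-out arrays and, chosen after seeing the data, a floor for dim readings. The ordinary equal-variance test among them stands for the analysis of variance that the study names for its data in general. Replicate numbers are shared between treatments, and over all probes the deviations from the group mean were correlated within a number (r = 0.298, 0.215 and 0.254 for replicates 1, 2 and 3). The replicate block among the alternatives therefore took the numbers to pair the arrays, while the main fit, its intervals and its p-values did not. Between unlike numbers r went from -0.271 to 0.160, the highest for LPS replicate 2 with saline replicate 3. This pairing rests on the correlations alone.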

Additional observations from a re-analysis of the deposited data

How the results depend on the processing

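Ntf3 was higher after LPS in all alternatives, from 0.16 to 1.59. The last, without saline replicate 1, is against saline arrays not well above background, and the p of that fit is not used. With that fit counted, Ntf3 met the criterion in 14 of 21. It lost it with normexp correction (0.32), without background correction (0.16), with an ordinary equal-variance test (1.18), with dim readings raised to the lowest signal well above background, chosen after seeing the data (0.73), without saline replicate 2 (1.06) or 3 (0.88) and without both (0.35), which left 0 of the member probes past it. With the replicate block, which treats the arrays as paired, Ntf3 kept 1.18 (limma adjusted p = 0.167), 245 probes were higher and 383 lower, and no other call changed among the member probes. The sign reversed for Ntf4 with normexp (-0.11), without background correction (-0.10) and without both saline replicates (-0.034). For Ntrk2 it reversed at A_42_P631184 with the slide row block (-0.037), at A_64_P058883 without background correction (-0.012) and without both (-0.54), with 1.37 under the row block, and at A_42_P538400 with normexp (-0.14), without correction (-0.13), without saline replicate 2 (-0.19), with dim readings raised (-0.34) and without both (-0.97). For Ntrk3 it reversed at A_64_P127858 with the row block (-0.49), without LPS replicate 3 (-0.11) and without saline replicate 3 (-0.0086), and at A_64_P035162 without saline replicate 3 (-0.068). Both Sort1 probes reversed without both saline replicates (-0.15 and -0.35). Probes higher, 186 at first, numbered 2 with normexp, 0 without correction, 1003 without scaling (227 lower, median over all probes 0.34 against -0.04), 118 with quantile scaling, 116 with dim probes left out, 100 with the ordinary test, 31 with dim readings raised, 1489 with the row block and 494 without both saline replicates. Probes lower, 327 at first, numbered 211 without correction, 173 with quantile scaling, 170 with dim probes left out, 48 with the ordinary test, 66 with the row block and 506 without both. Leaving out single arrays gave Ntf4 values from 0.015 to 0.21, A_42_P631184 from 0.18 to 0.57, A_64_P058883 from 0.022 to 1.00, A_42_P538400 from -0.19 to 0.93, A_64_P127858 from -0.11 to 0.41, A_64_P035162 from -0.068 to 0.74, A_44_P445572 from 0.037 to 0.24 and A_44_P822283 from 0.017 to 0.58, and the counts ranged from 129 to 374 higher, 81 to 757 lower, 0 to 1 member probes and 1 to 11 pathway genes. Pathway genes past the criterion, 6 at first, were 2 with dim probes left out, 1 with the ordinary test and 2 without both saline replicates. Limits are the 3 arrays per treatment, few litters, nested in treatment, uneven slide rows, adrenal transcripts on 2 saline arrays, and dim probes whose differences depend on the background correction.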

Other observations

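Other cell types of the ovary were described by the same marker lists. Among 11 macrophage markers with a probe, 1 was higher and 0 lower by the criterion, with a median difference of 0.26 and 8 above 0, and for 3 of them all LPS arrays were the higher, as at 5.02% of all probes. Mrc1, the mannose receptor, exceeded background clearly on the 3 LPS arrays alone and rose by at least 2.08-fold, and Adgre1, Csf1r and C1qc differed by 0.81, 0.52 and 0.34. The summed signal of the list was 11.4, 11.6 and 11.7 with LPS and between 9.12 and 10.8 with saline. Of the 9 genes of the ovarian stroma, Tcf21, a transcription factor of mesenchymal cells, was 2.11-fold higher after LPS (limma adjusted p = 0.271) and remained higher by 0.80 against saline replicate 1 alone, while Pdgfra and Lum differed by 0.36 and 0.33. The median of the stroma list was 0.24, with 6 of 9 genes above 0 and 3 below, and within the shared slide row 3 were above 0.

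Oocyte and granulosa cell lists held 0 genes past the criterion. The median difference was 0.43 over 9 oocyte genes, with 0.75, 0.63 and 0.60 for Bmp15, Ddx4 and Zp2, and 0.29 over 11 granulosa cell genes. Within the shared slide row, where LPS replicate 1 is the only LPS array, 8 of the 9 oocyte genes were lower after LPS, and 4 of the 11 granulosa cell genes were higher, against 9 and 8 higher over all arrays. Kitlg, the ligand of the Kit receptor of oocytes, differed by 0.57, Wt1 by 0.40 (-0.18 against saline replicate 1 alone), and Nr5a1, which the adrenal cortex also expresses, by -1.64, but against saline replicate 1 alone Nr5a1 was higher after LPS. The 8 vascular and smooth muscle genes had a median of 0.25 and 6 above 0, with 0.77, 0.55 and -0.48 for Cnn1, Tagln and Kdr, and Tek stayed at background throughout.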
